A study of Mus musculus with 12 samples.

Results

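CXCL9, CXCL10, CXCL11 and CXCL16 are chemokines that draw activated T cells and natural killer cells to inflamed tissue, and their genes were examined in mouse bone marrow-derived macrophages with and without the nuclear receptor ERRα, which Esrra encodes. Probes were chosen by their transcript accession, as every non-control probe that belongs to Cxcl9, Cxcl10, Cxcl11 or Cxcl16. Of these 4 genes, 3 had a matched probe, which gave 4 of the 55681 non-control probes on the array and 3 of the 13113 genes tested. Cxcl9 was read by 2 probes, Cxcl10 by 1 and Cxcl16 by 1. No probe was matched to Cxcl11, which RefSeq annotates as a transcribed pseudogene in the mouse reference genome, and it was not analysed here.

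The study compared 4 groups of 3 one-colour arrays each. They were ERRα-/- macrophages given lipopolysaccharide (LPS, 100 ng/mL), ERRα+/+ macrophages given LPS, ERRα-/- macrophages given PBS as the solvent, and ERRα+/+ macrophages given PBS. Bone marrow was taken from male mice, C57BL6 by strain and 6 to 8 weeks old, and was grown for 5 to 7 days with macrophage colony-stimulating factor. ERRα-/- cells came from knockout mice; the deleted stretch of Esrra and the length of the LPS treatment are not given in the sources used here. Nothing in the labels says that the replicates were separate animals or cultures, so p-values measure only the spread between these samples, which may be technical.

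LPS, a component of the outer membrane of Gram-negative bacteria, acts on macrophages through TLR4. One branch of that signal frees the NF-kB transcription factors, and another, through TRIF and IRF3, induces interferon-β, which acts back on the cells through its receptor. CXCL9, CXCL10 and CXCL11 share the receptor CXCR3. Cxcl9 is a classical target of interferon-γ, whereas Cxcl10 also answers to type I interferon, IRF3 and NF-kB. CXCL16 differs in build: it is made as a transmembrane protein with a chemokine domain, binds CXCR6, takes up oxidized lipoprotein as a scavenger receptor, and is shed from the surface by the protease ADAM10.

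Cxcl9 lies at chr5:92321331-92328079 and Cxcl10 at chr5:92346638-92348889 (GRCm38.p6), both on the minus strand and beside Cxcl11 at chr5:92359544-92363296, whereas Cxcl16 lies apart at chr11:70454389-70459984. Promoters are shown for Cxcl9 and Cxcl10, the only ones of these genes with a promoter sequence at hand. Each holds a letter match for an interferon-stimulated response element and for an NF-kB site in the same window. Both promoters are RefSeq sequences of that build. Their 300 bases run 5′ to 3′ on the minus strand, from 250 bases before the RefSeq start to 50 after it. Capitals mark the motif matches. The Cxcl9 window is chr5:92328030-92328329 and the Cxcl10 window is chr5:92348840-92349139.
Cxcl9 promoter: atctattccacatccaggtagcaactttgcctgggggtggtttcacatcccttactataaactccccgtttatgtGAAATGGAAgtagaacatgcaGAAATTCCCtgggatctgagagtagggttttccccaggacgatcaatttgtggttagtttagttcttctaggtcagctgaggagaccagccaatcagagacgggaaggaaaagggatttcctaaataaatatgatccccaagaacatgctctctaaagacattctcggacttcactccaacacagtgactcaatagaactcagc
Cxcl10 promoter: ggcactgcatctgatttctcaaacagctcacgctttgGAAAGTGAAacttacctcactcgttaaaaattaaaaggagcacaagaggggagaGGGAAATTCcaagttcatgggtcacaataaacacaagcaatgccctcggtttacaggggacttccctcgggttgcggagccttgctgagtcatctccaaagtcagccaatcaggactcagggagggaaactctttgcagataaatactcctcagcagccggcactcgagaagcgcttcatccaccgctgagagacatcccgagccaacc

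In the Cxcl9 promoter, GAAATGGAA at -175 matched the interferon-stimulated response element searched as GAAANNGAA, and GAAATTCCC at -154 matched the NF-kB motif GGGANNTTC on the opposite strand. In the Cxcl10 promoter the same motifs were matched by GAAAGTGAA at -213 and by GGGAAATTC at -159, both on the strand shown. Of 32851 mouse promoters of this length in the RefSeq table, 8.56% held GAAANNGAA on either strand, 3.94% held GGGANNTTC, and 0.387% held both. Neither window held AAGGTCA, searched as the ERR response element and present in 4.72% of promoters. A match describes letters only, and a missing match says only that these letters are not in this window. No other promoter of these genes was matched in the table.

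Levels are given as the log2 processed signal of a probe minus the 75th percentile of its own array, so that 1 unit is a doubling. They compare arrays for 1 probe and do not compare one probe with another. Replicate 1 of every group was on one slide (slide 1) and replicates 2 and 3 of every group were on another (slide 2). Over the genes tested, 76.1% of the variance lay on a first component that separated LPS from PBS arrays, and 10.0% on a second that separated the slides. The Esrra probe, which may lie outside the deleted stretch, read 4.40, 3.92 and 3.83 on ERRα-/- LPS arrays, 5.87, 6.25 and 6.36 on ERRα+/+ LPS arrays, 2.48, 0.25 and 0.15 on ERRα-/- PBS arrays, and 4.54, 4.39 and 4.68 on ERRα+/+ PBS arrays. The ERRα-/- arrays lay below the ERRα+/+ arrays in each treatment, by -2.11 with LPS (adjusted p = 0.201), by -3.58 with PBS (adjusted p = 0.0225) and by -2.84 ± 0.36 averaged over both (SE, adjusted p = 0.00378, limma).

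LPS separated the Cxcl9 arrays fully from the PBS arrays in both genotypes. The brighter probe, which represents the gene in the tests, read 3.32, 5.52 and 5.37 in ERRα-/- LPS replicates 1, 2 and 3, and 2.79, 3.94 and 4.19 in ERRα+/+ LPS replicates. It read -1.84, -2.12 and -2.15 in ERRα-/- PBS replicates, and -7.33, -4.80 and -4.43 in ERRα+/+ PBS replicates. All LPS arrays lay above all PBS arrays, the LPS groups of the 2 genotypes overlapped, and every ERRα-/- PBS array lay above every ERRα+/+ PBS array. In ERRα+/+ PBS cells this probe was well above background on 1 of 3 arrays, against 3 of 3 in ERRα-/- PBS cells.

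The second Cxcl9 probe was well above background on all 12 arrays. It read 1.86, 4.26 and 4.15 in ERRα-/- LPS replicates, and 1.45, 2.67 and 2.87 in ERRα+/+ LPS replicates. It read -2.58, -2.70 and -2.86 in ERRα-/- PBS replicates, and -4.76, -4.12 and -3.75 in ERRα+/+ PBS replicates. The order of the groups and the pattern of overlap were those of the brighter probe, with a smaller gap between the PBS groups.

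Cxcl10 read 9.14, 9.87 and 9.84 in ERRα-/- LPS replicates, and 8.32, 9.61 and 9.71 in ERRα+/+ LPS replicates. It read 2.33, 3.25 and 3.11 in ERRα-/- PBS replicates, and -1.80, 1.69 and 2.09 in ERRα+/+ PBS replicates. The LPS groups overlapped, and the PBS groups were apart by 0.24 between the lowest ERRα-/- array and the highest ERRα+/+ array. Replicate 1 of the ERRα+/+ PBS group stood more than 3 log2 units below the other 2 replicates of that group. The probe was well above background on all 12 arrays and no spot on any array was saturated. With LPS its signal was 58.2% to 67.6% of the array's brightest non-control signal in ERRα-/- cells and 32.8% to 68.2% in ERRα+/+ cells. Whether so bright a signal still tracks the amount of RNA was not tested.

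Cxcl16 read 4.72, 5.08 and 5.08 in ERRα-/- LPS replicates, and 4.72, 5.15 and 5.16 in ERRα+/+ LPS replicates. It read 3.94, 4.04 and 4.03 in ERRα-/- PBS replicates, and 3.18, 4.07 and 4.00 in ERRα+/+ PBS replicates. All 12 arrays read it well above background. Its LPS arrays lay above its PBS arrays, and its 2 genotypes overlapped in each treatment.

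**Figure D1:**
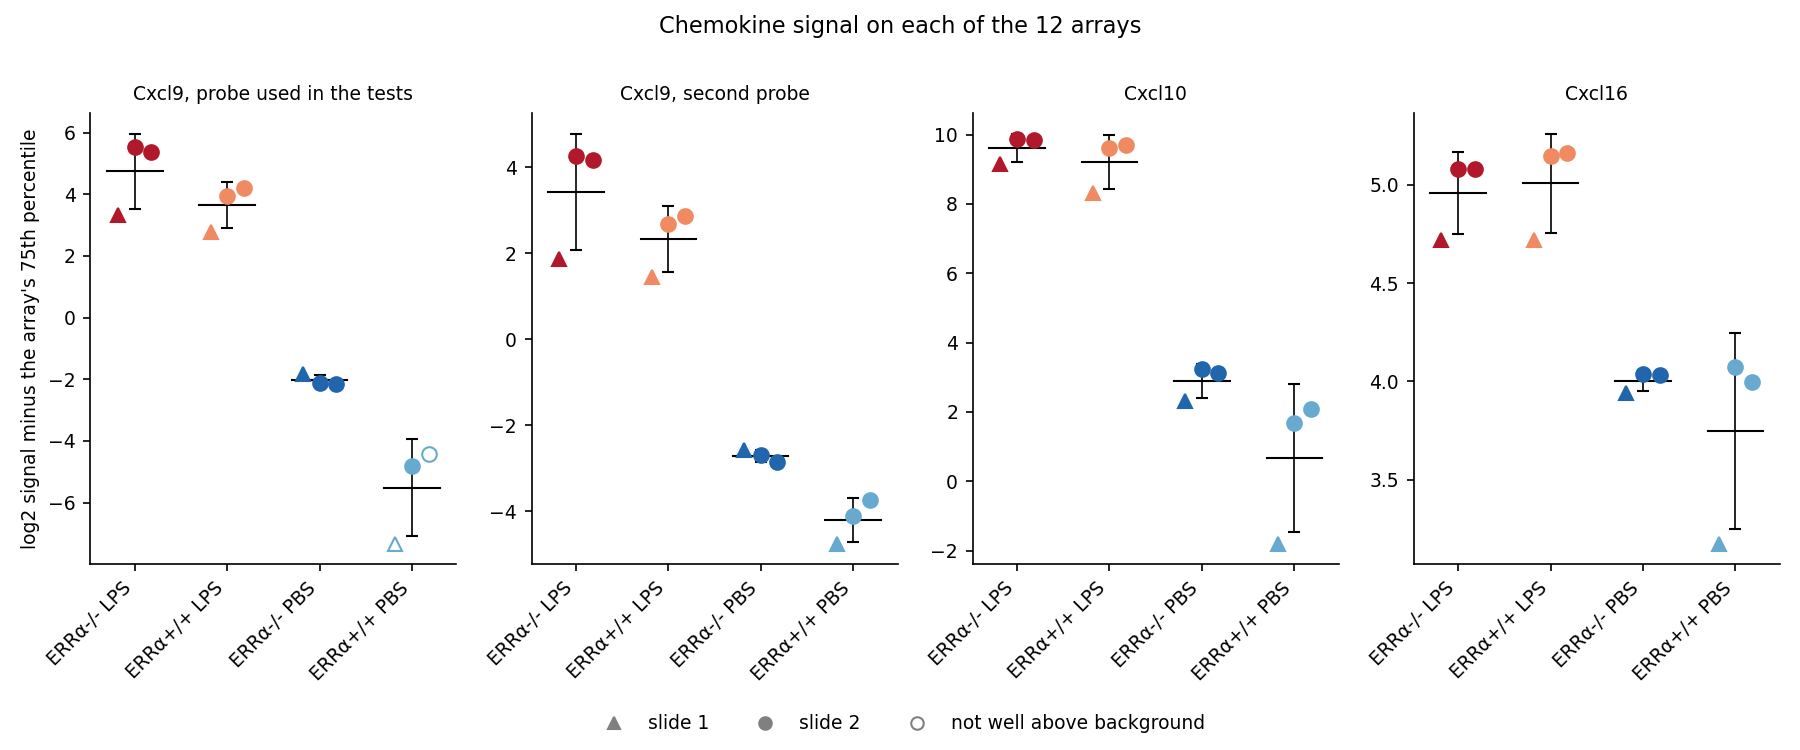
Log2 signal minus the array's 75th percentile (y axis, scaled separately in each panel) for the 4 probes on the 12 arrays, by group. Each point is 1 array, with triangles for slide 1, circles for slide 2 and open symbols for spots not well above background; lines and bars are the mean ± SD of 3 arrays. LPS arrays lie above PBS arrays in every panel, and ERRα-/- PBS arrays lie above ERRα+/+ PBS arrays for both Cxcl9 probes and for Cxcl10 but not for Cxcl16.

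All 3 measured genes rose with LPS in both genotypes. Cxcl9 averaged 4.74 ± 1.23 with LPS and -2.04 ± 0.17 with PBS in ERRα-/- cells (SD, n = 3 each), a log2 difference of 6.77 ± 0.77 (SE) or 109-fold (adjusted p = 8.78e-05, limma with Benjamini-Hochberg adjustment over 13113 genes). In ERRα+/+ cells it averaged 3.64 ± 0.75 with LPS and -5.52 ± 1.57 with PBS (SD, n = 3 each), a log2 difference of 9.16 ± 0.77 (SE, adjusted p = 1.32e-05, limma). That value rests on a PBS group with 1 array well above background. The second probe, measured on every array, gave 6.14 ± 0.60 in ERRα-/- cells and 6.54 ± 0.60 in ERRα+/+ cells (SE, limma).

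Cxcl10 averaged 9.62 ± 0.41 with LPS and 2.90 ± 0.50 with PBS in ERRα-/- cells (SD, n = 3 each), a log2 difference of 6.72 ± 0.85 or 106-fold (SE, adjusted p = 0.000161, limma). In ERRα+/+ cells it averaged 9.21 ± 0.78 with LPS and 0.66 ± 2.14 with PBS, a log2 difference of 8.55 ± 0.85 or 375-fold (SE, adjusted p = 3.79e-05, limma). Without ERRα+/+ PBS replicate 1 the ERRα+/+ difference was 7.32. Cxcl16 rose far less: its log2 difference was 0.96 ± 0.24 in ERRα-/- cells (1.94-fold, adjusted p = 0.00739) and 1.26 ± 0.24 in ERRα+/+ cells (2.40-fold, adjusted p = 0.00186; SE, limma). Under quantile normalization the ERRα-/- value for Cxcl16 was 0.52, with an adjusted p of 0.0705 in limma.

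These 3 calls of 3 stand against a background in which LPS changed much of the transcriptome. In ERRα-/- cells 50.4% of genes tested were called, and 25.1% were called higher with LPS. In ERRα+/+ cells 45.9% were called and 22.2% were called higher. The LPS and PBS groups did not overlap for 59.6% of genes in ERRα-/- cells, 30% with LPS higher, and for 53.9% in ERRα+/+ cells, 26.6% with LPS higher. A call or an absence of overlap was thus common in these comparisons. The arrays average over all cells in a dish, and more cells making a transcript cannot be told apart from more transcript per cell.

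Without LPS, Cxcl9 and Cxcl10 lay higher in ERRα-/- cells on every array, although whether the difference passed the test depended on how the slides were treated. Cxcl9 differed by 5.48, 2.68 and 2.29 between ERRα-/- and ERRα+/+ PBS arrays of the same number. The fitted log2 difference was 3.48 ± 0.77 (SE, 95% interval 1.78 to 5.19), with an adjusted p of 0.122 in limma, and with the replicate number as a block the adjusted p was 0.0229. With the slide as a block it was 0.0113, and within slide 2 alone the difference was 2.48 (adjusted p = 0.00166, limma). The call is thus made with a block and missed without one.

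The size of the Cxcl9 difference also depended on the probe. The second probe gave same-numbered differences of 2.17, 1.42 and 0.89 under PBS and a fitted log2 difference of 1.49 ± 0.60 (SE, adjusted p = 0.604, limma). Its adjusted p was 0.193 with the replicate block and 0.129 with the slide block, and within slide 2 it differed by 1.15 (adjusted p = 0.00986, limma). Both probes therefore gave a positive difference in all 3 numbered pairs, but only the brighter probe, with 2 of its 3 ERRα+/+ PBS arrays not well above background, passed the test with a block over all 12 arrays. Left without ERRα+/+ PBS replicate 1, the brighter probe gave 2.58 (adjusted p = 0.172) and the second gave 1.22 (adjusted p = 0.710, limma). That omission leaves ERRα+/+ PBS cells without a slide 1 array. All values given without that array, here and below, therefore compare genotypes with the slides unbalanced.

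For Cxcl10 the same-numbered PBS differences were 4.13, 1.56 and 1.02, and the fitted log2 difference was 2.24 ± 0.85 (SE, 95% interval 0.35 to 4.12, adjusted p = 0.544, limma). The adjusted p was 0.125 with the replicate block. One array set much of the size: without ERRα+/+ PBS replicate 1, which unbalances the slides, the difference was 1.00 (adjusted p = 0.579, limma). Within slide 2, with 2 arrays per group, it was 1.29 with a narrower spread (adjusted p = 0.00682, limma). Cxcl16 showed no such gap, with same-numbered differences of 0.77, -0.03 and 0.04 and a fitted difference of 0.26 ± 0.24 (SE, 95% interval -0.28 to 0.79, adjusted p = 1.00, limma). Its small value turned to -0.03 without ERRα+/+ PBS replicate 1.

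The genotype background under PBS was low in the fit without a block, where 0.427% of genes tested were called and 0.0686% were called higher in ERRα-/- cells. It was 1.47% and 0.366% higher with the replicate block, 2.12% and 0.663% higher with the slide block, and 9.55% and 4.64% higher within slide 2. Thus 0 of the 3 genes were called in the fit without a block, 1 with either block, and 2 within slide 2. PBS groups that did not overlap, with ERRα-/- arrays higher, were found for 5.81% of genes, against 2 of these 3 genes.

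With LPS the fitted genotype differences of Cxcl9 and Cxcl10 over all 12 arrays were smaller than with PBS, but a change between treatments was not shown. Within slide 2 the second Cxcl9 probe went the other way, at 1.43 with LPS and 1.15 with PBS. The Cxcl9 log2 difference between ERRα-/- and ERRα+/+ LPS arrays was 1.10 ± 0.77 (SE, 95% interval -0.61 to 2.80, adjusted p = 0.972, limma), and the second probe gave 1.09. It was 0.67 without ERRα+/+ LPS replicate 1, 0.70 without ERRα-/- LPS replicate 2 and 1.81 without ERRα-/- LPS replicate 1. Cxcl9 was higher in ERRα-/- cells in 3 of 3 same-numbered pairs, by 0.53, 1.58 and 1.18, and within slide 2 it differed by 1.38 (adjusted p = 0.00528) at the brighter probe and by 1.43 (adjusted p = 0.00488, limma) at the second. Over all 12 arrays 0 of the 3 genes were called under LPS, where 0.13% of genes tested were called and 0.0763% were called higher in ERRα-/- cells, and again 0 of the 3 with the replicate block, where 1.01% were called and 0.32% were called higher. Within slide 2, Cxcl9 was 1 of 3 called, beside 16.9% of genes called and 8.12% called higher.

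For Cxcl10 the same-numbered LPS differences were 0.83, 0.26 and 0.13, and the fitted difference was 0.41 ± 0.85 (SE, 95% interval -1.48 to 2.29, adjusted p = 0.995, limma). It was 0.20 within slide 2, and -0.04 without ERRα+/+ LPS replicate 1, which leaves the slides unbalanced between the genotypes. Cxcl16 differed by -0.05 ± 0.24 (SE, 95% interval -0.58 to 0.48, adjusted p = 0.998, limma). The intervals for Cxcl9 and Cxcl10 still hold differences of a doubling or more, so that these arrays bound the Cxcl16 difference more tightly than the others.

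**Figure D2:**
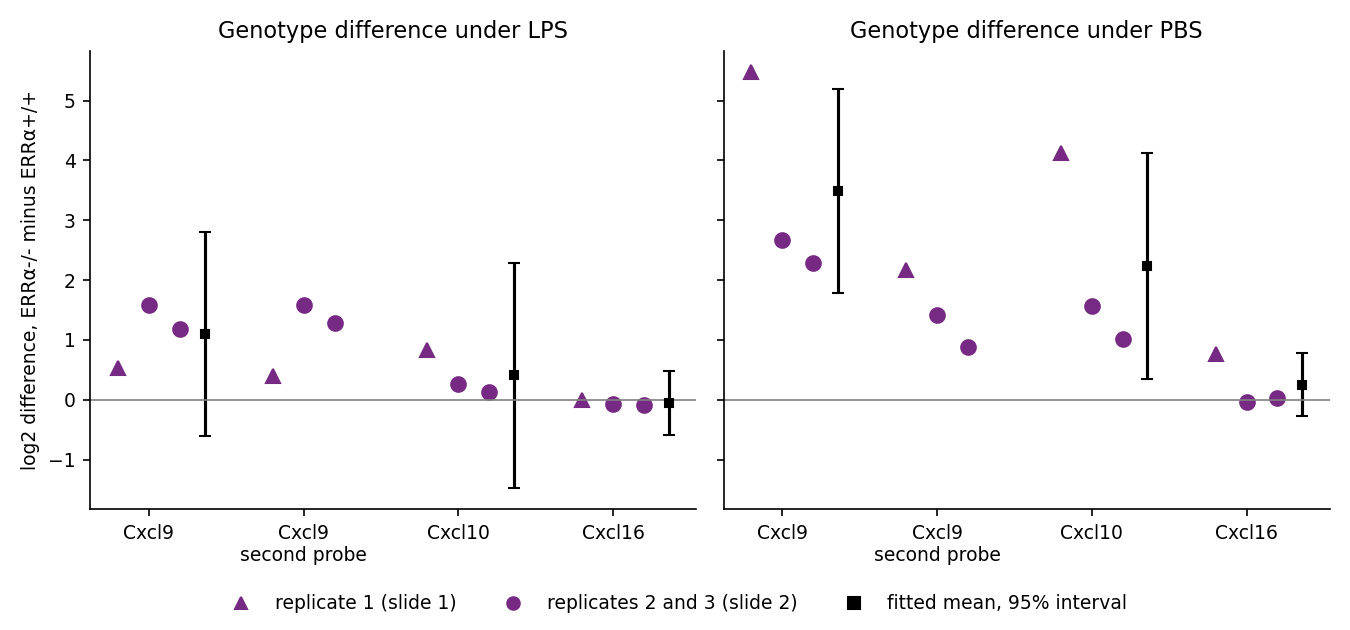
Log2 difference of ERRα-/- minus ERRα+/+ (y axis) with LPS (left) and with PBS (right). Purple symbols are the differences between arrays of the same replicate number, with triangles for slide 1; black squares and bars are the fitted difference and its 95% interval. Under PBS the Cxcl9 and Cxcl10 pairs are all above 0 and the slide 1 pair is the highest, whereas the Cxcl16 pairs lie near 0 on slide 2.

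Averaged over both treatments, Cxcl9 was higher in ERRα-/- cells by 2.29 ± 0.54 (SE, adjusted p = 0.0878, limma), and the adjusted p was 0.0158 with the replicate block. At the second probe the average was 1.29 ± 0.42 (SE), with adjusted p = 0.260 without a block, 0.0665 with the replicate block and 0.0396 with the slide block in limma. The Cxcl10 average was 1.32 ± 0.60 (SE, adjusted p = 0.533) and the Cxcl16 average was 0.10 ± 0.17 (SE, adjusted p = 0.955, limma). In this comparison 1.37% of genes were called and 0.397% were called higher without a block, where 0 of the 3 were called. Cxcl9 was called with the replicate block, beside 3.81% called and 1.14% called higher, and with the slide block, beside 4.95% and 1.67%. Within slide 2 Cxcl9 and Cxcl10 were called, beside 20.4% and 9.88%.

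Whether LPS raised these genes by a different amount in ERRα-/- cells was tested as the difference of the 2 responses. It was -2.39 ± 1.09 for Cxcl9 (SE, 95% interval -4.80 to 0.03), -1.83 ± 1.20 for Cxcl10 (95% interval -4.49 to 0.83) and -0.30 ± 0.34 for Cxcl16 (95% interval -1.06 to 0.45), with an adjusted p of 1.00 for each in limma. Without ERRα+/+ PBS replicate 1 it was -1.48 for Cxcl9, -0.60 for Cxcl10 and -0.018 for Cxcl16. The second Cxcl9 probe gave -0.40 ± 0.84 (SE). No gene was called in this comparison (0% of those tested, limma), and 293 genes, or 2.23%, had an unadjusted p under 0.05. Within slide 2 the brighter Cxcl9 probe gave -1.10 (adjusted p = 0.0471) and Cxcl10 gave -1.09 (adjusted p = 0.0438), whereas the second Cxcl9 probe gave 0.28 (adjusted p = 0.456, limma). Within slide 2, 4.19% of genes were called in this comparison and 2.06% were called lower. The 2 Cxcl9 probes thus differed in sign there, and a smaller Cxcl9 response in ERRα-/- cells was not shown.

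**Figure D3:**
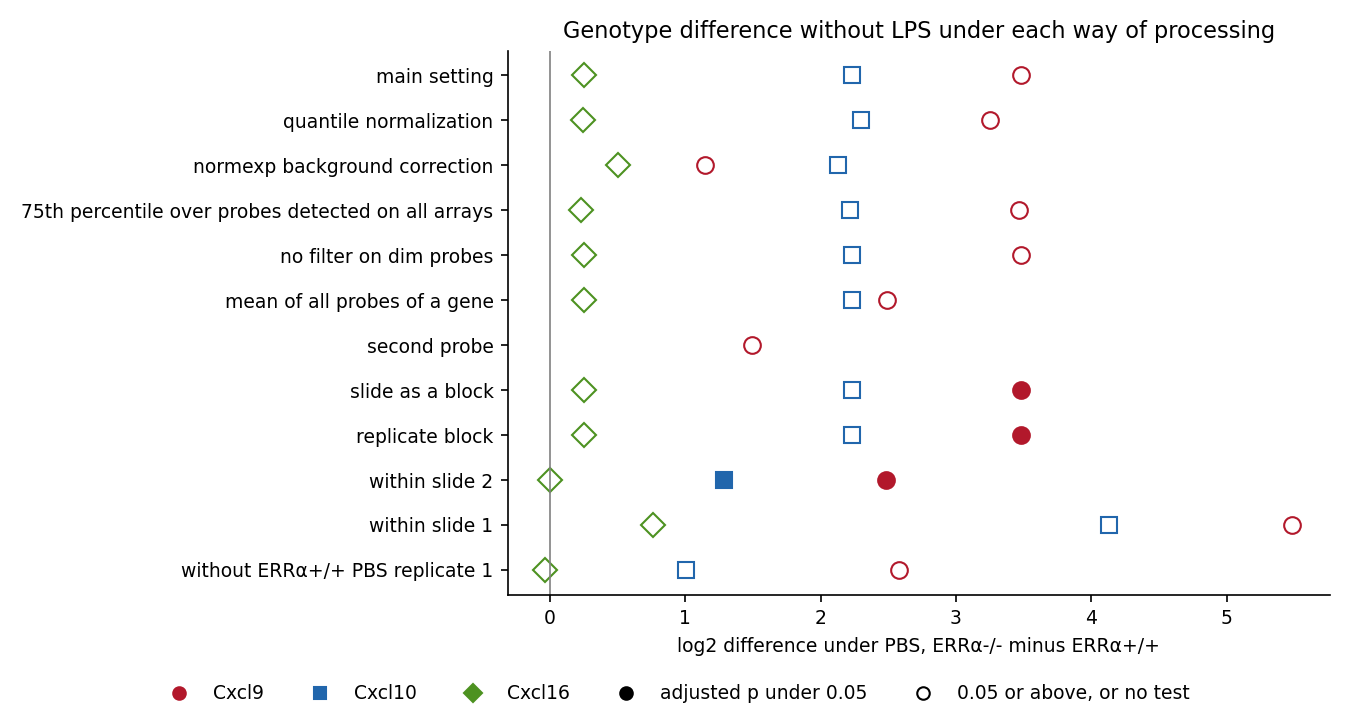
Log2 difference under PBS of ERRα-/- minus ERRα+/+ (x axis) for Cxcl9, Cxcl10 and Cxcl16 under each way of processing the arrays (rows). Filled symbols passed an adjusted p of 0.05 in limma and open symbols did not or, within slide 1, had no test. Cxcl9 ranges from 1.15 with normexp background correction to 5.48 within slide 1, and Cxcl16 from -0.03 without ERRα+/+ PBS replicate 1 to 0.77 within slide 1.

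The genes whose 12 levels ran most like those of Cxcl9, each centred on its own mean, were Ccl12, Cxcl10 and Il1b, at root mean square differences of 0.68, 0.72 and 0.82 log2 units. Ccl12 encodes a monocyte-attracting chemokine and Il1b encodes interleukin-1β. Nearest to Cxcl10 were Gbp5 (0.59), which encodes an interferon-induced guanylate-binding protein, Il1b (0.65) and Cd69 (0.65), an early activation marker, with Cxcl9 next after them. These genes were picked on the same 12 levels, so their likeness is a description. Cxcl16 stood far from both ligands, at 3.69 from Cxcl9 and 3.42 from Cxcl10, and nearest to Sdad1 (0.11), Pgap2 (0.14) and Rgs3 (0.15).

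Of the receptors and handlers of these chemokines, 5 of 6 were tested, Ackr3 being too dim. In ERRα-/- cells 2 rose and 1 fell with LPS, and in ERRα+/+ cells 1 rose and 1 fell. These counts are near the shares over all genes tested, of which 50.4% were called in ERRα-/- cells and 45.9% in ERRα+/+ cells. Cxcr3, the receptor for CXCL9 and CXCL10, read -2.69, -2.07 and -2.15 in ERRα-/- LPS replicates and -0.18, 0.91 and 0.92 in ERRα-/- PBS replicates. It read -3.13, -1.65 and -1.98 in ERRα+/+ LPS replicates and -0.39, 1.06 and 1.03 in ERRα+/+ PBS replicates. Cxcr3 thus fell where its ligands rose, by 2.85 ± 0.49 in ERRα-/- and by 2.82 ± 0.49 in ERRα+/+ cells (SE, adjusted p = 0.000937 for ERRα-/- and 0.00110 for ERRα+/+ cells, limma), and was well above background on every array.

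Cxcr6, which encodes the CXCL16 receptor, differed by 0.38 ± 0.43 with LPS in ERRα-/- cells and by 0.17 ± 0.43 in ERRα+/+ cells (SE, adjusted p = 0.483 and 0.762, limma). Adam10, whose protease sheds CXCL16, differed by -0.38 and -0.42 (adjusted p = 0.253 in ERRα-/- and 0.210 in ERRα+/+ cells), and passed with the replicate block (adjusted p = 0.0488 and 0.0341, limma). Adam17, another sheddase, rose by 1.03 ± 0.21 in ERRα-/- cells and by 1.44 ± 0.21 in ERRα+/+ cells (SE). Dpp4, whose peptidase trims the amino end of CXCR3 ligands, rose by 1.55 ± 0.50 in ERRα-/- cells (SE, adjusted p = 0.0249) and differed by -0.13 in ERRα+/+ cells (limma). It was well above background on 9 of 12 arrays, and its 2 responses were not shown to differ. None of the 5 was called between genotypes, with or without the replicate block.

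Most listed genes of interferon induction and signalling rose with LPS. Of 20 such genes, 15 rose, 1 fell and 4 did not pass in ERRα-/- cells. In ERRα+/+ cells 14 of these genes rose, 1 fell and 5 did not pass. Their median log2 differences were 1.19 in ERRα-/- cells and 1.37 in ERRα+/+ cells, beside 0.05 and 0.02 over all genes tested. Of all genes tested, 25.1% were called higher with LPS in ERRα-/- cells and 22.2% in ERRα+/+ cells. Ifnb1, which encodes interferon-β, was not well above background on any PBS array and was so on every LPS array, at least 34.1-fold higher with LPS in ERRα-/- cells and at least 23.4-fold higher in ERRα+/+ cells (adjusted p = 3.47e-07 and 1.33e-07, limma). These bounds set the LPS mean against the lowest signal well above background on the PBS arrays.

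Irf1, an interferon-induced transcriptional activator, rose by 2.72 in ERRα-/- cells and 2.76 in ERRα+/+ cells, and Irf7, the amplifier of type I interferon, rose by 3.38 and 3.99. Stat2 rose by 2.04 in ERRα-/- cells and 2.57 in ERRα+/+ cells, and Irf9, whose protein binds STAT2, by 0.86 and 1.14. Irf3, which is activated by phosphorylation, differed by -0.06 and 0.09. Among receptor chains, Ifngr1 fell by 1.09 in ERRα-/- cells and by 1.29 in ERRα+/+ cells, Ifngr2 rose by 0.86 in ERRα-/- cells and differed by 0.75 in ERRα+/+ cells (adjusted p = 0.0589, and 0.0181 with the replicate block), and Ifnar1 and Ifnar2 were not called in either genotype.

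Between genotypes under PBS none of these 20 passed, 1 did with the replicate block, and 4 did within slide 2, all higher in ERRα-/- cells. Within slide 2, 5 passed under LPS and 7 on average, again all higher in ERRα-/- cells. Over all genes tested, slide 2 called 4.64% higher under PBS, 8.12% under LPS and 9.88% on average, and the replicate block called 0.366% higher under PBS. The 1 of the 20 that passed under PBS with the replicate block was Ifnb1, which was not well above background in either PBS group and is given no fold. Under LPS, Ifnb1 read 0.26, 0.64 and 0.68 in ERRα-/- cells and -0.18, -0.41 and -0.10 in ERRα+/+ cells, without overlap, and differed by 0.75 ± 0.22 (SE, adjusted p = 0.365, limma). Groups that did not overlap, ERRα-/- higher, were found for 4.46% of genes under LPS. Averaged over treatments and without a block, Ifnb1 was the 1 of these 20 called (adjusted p = 0.0249, limma), where 0.397% of genes were called higher. That average includes PBS levels not well above background, and no size is given.

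Interferon-stimulated genes, the class to which Cxcl9 and Cxcl10 belong, rose with LPS as well. All 26 tested of 28 listed rose in each genotype, with median log2 differences of 3.90 in ERRα-/- cells and 4.50 in ERRα+/+ cells. The share of all genes tested that was called higher was 25.1% in ERRα-/- and 22.2% in ERRα+/+ cells. The 3 with the largest differences were Gbp5 (7.55), Rsad2 (6.00) and Cmpk2 (5.65) in ERRα-/- cells, and Gbp5 (8.28), Rsad2 (6.98) and Gbp2 (6.70) in ERRα+/+ cells. RSAD2 and CMPK2 are antiviral enzymes, and the GBP proteins act on vacuoles that hold microbes.

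Between genotypes under PBS, 25 of the 26 interferon-stimulated genes had a positive difference, with a median of 1.08 beside -0.02 over all genes tested, and 0 passed the test in limma. With the replicate block 2 passed, Ifit1 and Ifit3, and within slide 2 16 passed, all higher in ERRα-/- cells. Over all genes tested, 0.366% were called higher with the replicate block and 4.64% within slide 2. Ifit1 read 2.49, 2.52 and 2.36 in ERRα-/- PBS replicates and -0.32, 0.41 and 1.09 in ERRα+/+ PBS replicates. Ifit3 read 5.19, 4.66 and 4.47 in ERRα-/- PBS replicates and 1.85, 2.60 and 3.23 in ERRα+/+ PBS replicates. These 2 genes, which encode interferon-induced RNA-binding proteins, differed by 2.07 ± 0.50 (adjusted p = 0.159, and 0.0242 with the replicate block) and by 2.22 ± 0.42 (adjusted p = 0.0620, and 0.0311 with the replicate block; SE, limma). The median of the 26 was 1.05 without ERRα+/+ PBS replicate 1 and 0.91 within slide 2.

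Under LPS all 26 differences were positive, with a median of 0.46, and 0 passed in limma with or without the replicate block, whereas 8 passed within slide 2. Slide 2 called 8.12% of all genes tested higher under LPS. Averaged over treatments Ifit3 passed (1.45 ± 0.30, SE, adjusted p = 0.0444, limma), and 3 passed with the replicate block, whereas 0 passed without ERRα+/+ PBS replicate 1. Of all genes tested, 0.397% were called higher on average without a block and 1.14% with the replicate block. The sign shared by so many genes is a description, since these genes move together from array to array.

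Of 11 NF-kB subunits and inhibitors, 10 rose with LPS in ERRα-/- cells and 11 in ERRα+/+ cells, with medians of 3.04 and 3.08. Beside them, 25.1% of all genes tested rose in ERRα-/- cells and 22.2% in ERRα+/+ cells. The largest differences were those of Tnfaip3 (4.47), Nfkbia (3.57) and Nfkb2 (3.38) in ERRα-/- cells, and Tnfaip3 (4.31), Rel (4.17) and Nfkbia (3.98) in ERRα+/+ cells. TNFAIP3 and the IκBα protein that Nfkbia encodes restrain the pathway, whereas Rel and Nfkb2 encode subunits. The gene that did not pass in ERRα-/- cells was Bcl3 (1.57 ± 0.61, SE, adjusted p = 0.0524, and 0.00207 with the replicate block, limma). Under PBS their genotype median was 0.55, with none called, and it was 0.16 within slide 2, where 2 of the 11 were called higher, and 0.20 without ERRα+/+ PBS replicate 1. Slide 2 called 4.64% of all genes tested higher under PBS.

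Of the other CXC chemokines, 8 of 9 listed were tested. With LPS, 7 rose in ERRα-/- cells, where 25.1% of all genes tested rose. In ERRα+/+ cells 5 rose and 1, Cxcl14, fell, where 22.2% of all genes tested rose. The neutrophil attractants Cxcl3, Cxcl2 and Cxcl1 led: Cxcl3 was at least 196-fold higher with LPS in ERRα-/- cells, where the PBS arrays were not well above background, and Cxcl2 rose by 8.44. In ERRα+/+ cells both also rose (adjusted p = 1.96e-06 for Cxcl3 and 1.05e-06 for Cxcl2, limma), from PBS groups with 1 of 3 arrays well above background, and no size is given. Cxcl1 rose by 9.52 in ERRα+/+ cells, and by 8.03 in ERRα-/- cells from a PBS group with 1 of 3 arrays well above background.

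Between genotypes most of these chemokines had the opposite sign to Cxcl9 and Cxcl10. Under PBS 4 of the 8 were lower in ERRα-/- cells and none were higher, with a median of -1.24, where 0.358% of all genes tested were called lower. Cxcl1 read -4.61, -5.31 and -5.69 in ERRα-/- PBS replicates and -3.26, -2.38 and -2.59 in ERRα+/+ PBS replicates, a log2 difference of -2.46 ± 0.36 (SE, adjusted p = 0.0232, limma). It read 2.13, 3.19 and 3.17 in ERRα-/- LPS replicates and 6.68, 6.72 and 6.93 in ERRα+/+ LPS replicates, and was the 1 chemokine of the list called under LPS (-3.94 ± 0.36, SE, adjusted p = 0.00256, limma). With the replicate block 2 were called under LPS, where 1.01% of all genes tested were called.

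Under PBS, Cxcl14 was also lower in ERRα-/- cells (-3.35 ± 0.53), as were Cxcl12 (-1.50 ± 0.26), which encodes the CXCR4 ligand, and Ppbp (-1.10 ± 0.17), which encodes a neutrophil attractant (SE, adjusted p = 0.0283, 0.0429 and 0.0272, limma). Cxcl1 was well above background on 1 of 3 ERRα-/- PBS arrays and Cxcl14 on 1 of 3. Cxcl2 differed by 1.57 ± 0.54 under PBS (SE, adjusted p = 0.444, limma), with 1 of 3 ERRα+/+ PBS arrays well above background. Without ERRα+/+ PBS replicate 1, 2 of the 8 were called under PBS, and under normexp background correction none were. A higher reading in ERRα-/- PBS cells was therefore not shared by CXC chemokines at large.

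**Figure D4:**
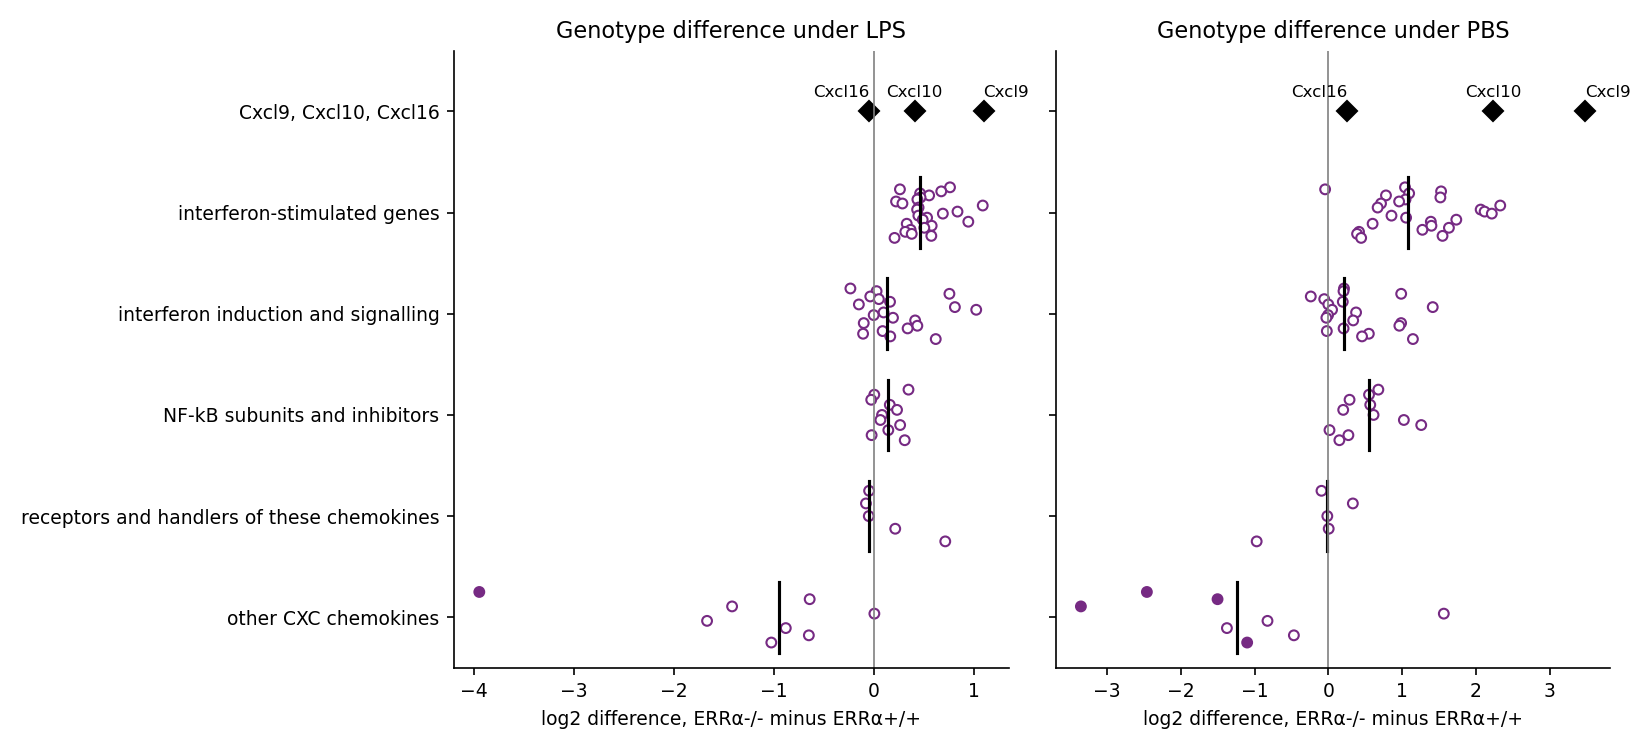
Log2 difference of ERRα-/- minus ERRα+/+ (x axis) with LPS (left) and PBS (right) for Cxcl9, Cxcl10 and Cxcl16 (black diamonds) and for the genes of 5 lists (circles, filled where the adjusted p is under 0.05 in limma); bars are list medians. Under PBS the interferon-stimulated genes have a median of 1.08 and the other CXC chemokines one of -1.24.

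Markers of other cells were read beside these differences. The 6 macrophage markers measured were well above background on every array, and their summed level, relative to each array's 75th percentile, ranged from 486 to 696 on ERRα-/- PBS arrays and from 322 to 631 on ERRα+/+ PBS arrays. Sums of 5 neutrophil markers were 190 to 232 on ERRα-/- PBS and 247 to 360 on ERRα+/+ PBS arrays. Sums of 6 stromal and endothelial markers were 2.55 to 2.89 and 3.94 to 7.76. Both sums were lower on ERRα-/- PBS arrays without overlap. Without a block, none of the 5 tested markers of either list was called under PBS. Of single genes tested, 14.2% had PBS groups without overlap, in either direction. Sums of 6 lymphocyte and natural killer cell markers were 1.08 to 1.81 and 1.46 to 1.74, and the natural killer marker Ncr1 and the T cell marker Cd8a were well above background on no array. Sums of 6 dendritic cell markers were 2.79 to 25.2 and 7.93 to 65.2, with Xcr1 above background on no array. With LPS the stromal sums were 4.98 to 9.77 on ERRα-/- arrays and 8.37 to 12.8 on ERRα+/+ arrays, above the PBS arrays of the same genotype without overlap. The list did not rise as a whole in ERRα+/+ cells, where 1 of its 5 tested markers had a positive difference with LPS (median -0.29). In ERRα-/- cells 4 of the 5 did (median 0.37). The neutrophil sums with LPS were 265 to 410 on ERRα-/- arrays, above ERRα-/- PBS arrays, and 220 to 436 on ERRα+/+ arrays, which overlapped with ERRα+/+ PBS arrays. The stromal marker called with LPS in each genotype was Pdgfrb, by 5.28 in ERRα-/- and 5.35 in ERRα+/+ cells. The dendritic cell marker Zbtb46 rose in each genotype, from PBS groups with 1 of 3 arrays well above background. Of 5 dendritic cell markers tested, 3 had a positive difference with LPS in each genotype. Ccr7 and Clec9a were called higher in ERRα-/- cells only, where 25.1% of all genes tested were. Among neutrophil markers, Camp differed by 1.14 in ERRα-/- cells and Mpo by -2.61 in ERRα+/+ cells (adjusted p = 0.0448 and 0.00362, limma). The part of the neutrophil and stromal markers in the chemokine differences was not tested.

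Genes beside the chemokine loci were compared as the local context. Of the 10 RefSeq neighbours flanking the Cxcl9, Cxcl10 and Cxcl11 cluster, 5 on each side, 5 were tested. With LPS 2 of them rose in each genotype, Sdad1 by 1.14 in ERRα-/- and 1.21 in ERRα+/+ cells and Nup54 by 1.44 and 1.39. Art3 overlaps the cluster itself, is not among these neighbours and was not tested. Of the 10 neighbours of Cxcl16, 5 were tested and 3 rose in each genotype, Med11, Zmynd15 and Psmb6, by 0.61 to 1.07 in ERRα-/- cells and 0.81 to 1.43 in ERRα+/+ cells. Over all genes tested, 25.1% were called higher with LPS in ERRα-/- cells and 22.2% in ERRα+/+ cells. None of these 10 tested neighbours was called between genotypes, and differences of the size seen for Cxcl9 and Cxcl10 with LPS were found at none of them.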

How the data were processed

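RNA was labelled with Cy3 and hybridised to 12 one-colour Agilent arrays, 3 per group, per the labels' protocols. Per the file headers, the deposited signal intensity was made with Agilent Feature Extraction 11.5.1.1, background-subtracted within each array and not normalized between arrays, while version 9.3.2.1 stands in the submitters' processing notes. The authors' deposited value table held the same intensity at all 62976 spots. Each spot also carries flags for saturation, uniformity and distance from background, per the file headers.

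Intensities were taken as log2 and centred on each array's 75th percentile, which lay between 340 and 701. On each array 46.3% to 57.4% of non-control spots were well above background and 0 were saturated. Non-uniform spots were left out. Probes were named through RefSeq accessions (27509 probes, 20887 genes; 28172 probes stayed unnamed). A probe was kept if well above background on all 3 arrays of a group, and a gene was represented by its brightest such probe. The number of arrays limits the precision.

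One mean per group was fitted with limma 3.58.1 (R 4.3.3) over 13113 genes, and genes were called at an adjusted p under 0.05. The fit was tested on simulated data. Slides came from the file headers. Arrays of the same replicate number deviated together (18 correlations, 0.14 to 0.78), whereas number 1 ran against 2 and 3 (-0.71 to -0.17) and numbers 2 and 3 crossed gave 0.13 to 0.56, so the replicate block overlaps with the slide. Deviations were taken from each group's own mean and cancel within a group, so the negative correlations are not independent of the positive ones. Named genes were all members and all receptors and handlers, fixed interferon signalling genes, measured CXC chemokines, the 3 largest called differences of other lists, the 3 most alike genes and 5 neighbours on each side. Members and lists were chosen with earlier results of these data known.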

Additional observations from a re-analysis of the deposited data

How the results depend on the processing

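The LPS responses of Cxcl9 and Cxcl10 kept their direction and their call under every alternative (within slide 1 there is no test), whereas the genotype differences depended on the slide, on background correction and on single arrays. Cxcl16 in ERRα-/- cells gave 0.52 under quantile normalization (adjusted p = 0.0705, limma), where the median of all genes shifted by -0.15 with LPS in ERRα-/- cells and by -0.14 in ERRα+/+ cells, and relative to that shift it stayed positive. That scaling called 2628 genes higher and 3945 lower in ERRα-/- cells, and 2407 higher and 3717 lower in ERRα+/+ cells, against 3292 and 3321, and 2908 and 3111, with the 75th percentile. Centring on probes detected on all arrays called 2355 higher and 4333 lower, and 2214 and 4094. Normexp correction, whose offset of 50 compresses low signals, gave a Cxcl9 difference under PBS of 1.15 and a difference of responses of -0.06, and LPS responses of 6.10 in ERRα-/- and 6.16 in ERRα+/+ cells.

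For Cxcl9 the genotype difference averaged over treatments passed under quantile normalization (2.09), with the slide block and with the replicate block (2.29 each) and within slide 2 (1.93). Under PBS it passed with either block (3.48) and within slide 2 (2.48), and within slide 2 it also passed under LPS (1.38) and for the difference of responses (-1.10). Within slide 2 Cxcl10 passed under PBS (1.29), on average (0.74) and for the difference of responses (-1.09), and the Cxcl16 average turned to -0.036. Within slide 1, with 1 array per group and no test, Cxcl9 gave 5.16 for the ERRα-/- LPS response, 5.48 under PBS and -4.96 for the difference of responses. Cxcl10 gave 10.1 for the ERRα+/+ LPS response, 4.13 under PBS and -3.30 for the difference of responses. Cxcl16 gave 0.77 under PBS, 0.0014 under LPS and -0.77 for the difference of responses. The replicate block changed no other call of these 3 genes.

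Leaving out 1 array at a time, which leaves the slides unbalanced between groups, moved the Cxcl9 average between 1.84 and 2.64. The Cxcl9 average passed without ERRα-/- LPS replicate 1 (adjusted p = 0.0298, limma). The Cxcl9 difference under LPS ranged from 0.67 to 1.81, and the difference of responses from -2.93 to -1.48 for Cxcl9 and from -2.54 to -0.60 for Cxcl10. The Cxcl10 difference under LPS ranged from -0.042 to 0.66. Cxcl16 ranged from -0.19 to 0.072 under LPS, from -0.030 to 0.42 under PBS and from -0.040 to 0.18 on average. Genes called ranged from 3 to 42 under LPS, 3 to 81 under PBS and 84 to 261 on average. Between genotypes, genes called under LPS, under PBS and on average were 17, 56 and 179 in the reported fit, 211, 278 and 649 with the slide block, 132, 193 and 499 with the replicate block, 2215, 1252 and 2671 within slide 2, and 6, 5 and 92 with no filter on dim probes. Normexp called 113 on average and 1 for the difference of responses, and slide 2 called 550 for that difference and 9480 for the ERRα+/+ LPS response. The causes were not tested. Signals near background limit Cxcl9 in ERRα+/+ PBS cells. The second Cxcl9 probe and the lists without ERRα+/+ PBS replicate 1 were added after seeing the data.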
